A study of Mus musculus with 2 samples.

Results

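Expression of the named alpha- and beta-tubulin genes was compared between mouse embryonic stem cells (mESCs) with and without extra telomeric repeat RNA. These are 10 of the 18888 genes in the deposited expression table, with 4 alpha genes (Tuba1a, Tuba1b, Tuba1c and Tuba4a) and 6 beta genes (Tubb2a, Tubb2b, Tubb3, Tubb4b, Tubb5 and Tubb6). They were chosen by their symbols with the expression values of the same libraries in view, so their levels and ratios are given as a description, without a test. Predicted gene models without a symbol were kept out of the set and are described separately. In PB mESCs the lowest of the 10 was Tubb2a, with 20.1 FPKM, and the highest alpha- or beta-tubulin gene with a symbol outside the set was Tuba3a, with 5.89 FPKM. FPKM counts sequenced fragments scaled to the length of the transcript and to the mapped fragments of the library, so levels in FPKM can be compared between genes.

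The cells were 46C mESCs, a mouse line in which a green fluorescent protein gene sits at the Sox1 locus. They carried either the empty PiggyBac transposon vector (PB) or the vector with a telomeric repeat fragment that is expressed as polyadenylated TERRA (PB-TERRA), the RNA that telomeres normally give. Both lines were used between passages 21 and 24, were grown on gelatin in a conventional mESC medium with serum and LIF, and gave 1 RNA-seq library per condition, 2 in all. Whether each line was 1 clone or a pool is not given in the sources used here, and TERRA itself has no gene row in the table. The depth recovered from the FPKM values was 24740000 reads in PB and 24780000 in PB-TERRA.

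With 1 library per condition there is no replicate spread, and no difference below can be set against one. The 95% intervals given are counting intervals. They cover the counting error of reads only. Reads without molecular identifiers are not independent molecules, so the intervals may be too narrow even for that error. The embryonic stem cell label was checked on 10 markers, and all 10 were at 49.7 FPKM or more in PB. Pou5f1, a core pluripotency factor, was at 745 FPKM in PB and 773 in PB-TERRA. Of the 10 markers, 4 were higher and 6 lower in PB-TERRA, with Esrrb (log2 ratio 0.14) and Sox2 (0.11) the highest and Tdgf1 (-0.18) and Dppa5a (-0.16) the lowest. In bulk RNA, fewer cells of a type and less RNA per cell cannot be told apart.

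Microtubules are hollow polymers of alpha- and beta-tubulin heterodimers, and they form the mitotic spindle, the tracks of intracellular transport and the core of cilia. Each vertebrate genome holds several alpha and beta genes, called isotypes, whose proteins differ mainly in their C-terminal tails. Cells also sense the pool of free dimers. When it is large, the factor TTC5 binds the first residues of nascent tubulin at the ribosome, and the CCR4-NOT complex then degrades the tubulin mRNA.

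The first 24 bases of the coding sequences show the part of the mRNA that encodes those first residues. They were read 5′ to 3′ from the GENCODE M21 transcripts of GRCm38, and the capitals mark the first 4 codons. The 4 alpha genes encoded 1 set of first 4 residues between them, and the 6 beta genes encoded another, although the codons differ between genes. Sequences of 9 of the 10 are shown, without Tubb6.
Tuba1a: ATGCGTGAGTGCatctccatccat
Tuba1b: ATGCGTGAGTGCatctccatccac
Tuba1c: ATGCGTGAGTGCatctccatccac
Tuba4a: ATGCGCGAGTGCatttcagtccat
Tubb2a: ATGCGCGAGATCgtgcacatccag
Tubb2b: ATGCGAGAGATCgtgcacattcag
Tubb3: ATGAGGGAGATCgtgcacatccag
Tubb4b: ATGAGGGAGATCgtgcacctgcag
Tubb5: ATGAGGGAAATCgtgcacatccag

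Tuba1a, the isotype best known from developing neurons, was at 1034 FPKM in PB and 837 FPKM in PB-TERRA. Its PB level was exceeded by 0.628% of the 12263 genes with at least 1 FPKM in 1 library. Tuba1b, a broadly expressed isotype, was at 755 FPKM in PB and 646 FPKM in PB-TERRA. Tuba1c was at 546 FPKM in PB and 477 FPKM in PB-TERRA. In each of these genes the PB-TERRA library was the lower, and its 95% interval lay wholly below that of PB. Tuba4a, which is rich in muscle and brain, was at 98.6 FPKM in PB and 97.5 FPKM in PB-TERRA, and its intervals overlapped. The log2 ratio of PB-TERRA over PB, here and below on FPKM plus 0.1, was -0.30 for Tuba1a (counting interval -0.33 to -0.28). It was -0.23 for Tuba1b (-0.25 to -0.20) and -0.20 for Tuba1c (-0.22 to -0.17). Tuba4a had -0.02 (-0.08 to 0.04), a value near 0. Tuba1a was thus 19.0% lower in PB-TERRA, Tuba1b 14.5%, Tuba1c 12.7% and Tuba4a 1.21%.

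Among the beta genes, Tubb5, the main isotype of dividing cells, was at 962 FPKM in PB and 881 FPKM in PB-TERRA, with a log2 ratio of -0.13 (-0.14 to -0.11). Tubb4b, found in many tissues and in cilia, was at 583 FPKM in PB and 564 FPKM in PB-TERRA, with a log2 ratio of -0.05 (-0.08 to -0.02). These are the abundant beta genes, and both values as deposited were lower in PB-TERRA. That of Tubb4b depended on the scaling, at -0.01 on the same sum of FPKM and at -0.0019, -0.02 and 0.0023 with the median of genes of like length, level and GC content taken off. Tubb6 was at 114 FPKM in PB and 98.4 FPKM in PB-TERRA, with a log2 ratio of -0.21 (-0.27 to -0.15). Tubb2b, a gene with high expression in the developing brain, was at 109 FPKM in PB and 94.6 FPKM in PB-TERRA, with a log2 ratio of -0.20 (-0.26 to -0.14). Both of these mid-level genes were lower in PB-TERRA without overlap of their intervals. Tubb3, the neuronal beta-tubulin, was at 57.7 FPKM in PB and 51.5 FPKM in PB-TERRA, with a log2 ratio of -0.16 (-0.25 to -0.08). Tubb2a, a close relative of Tubb2b, was at 20.1 FPKM in PB and 19.2 FPKM in PB-TERRA, with a log2 ratio of -0.07 (-0.22 to 0.08). The counting intervals of the Tubb3 levels did not overlap, and those of Tubb2a, the gene with the fewest reads, did.

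In PB the order of levels ran Tuba1a, Tubb5, Tuba1b, Tubb4b, Tuba1c, Tubb6, Tubb2b, Tuba4a, Tubb3, Tubb2a. Only Tubb6 (111 to 117 FPKM) and Tubb2b (106 to 112 FPKM) were neighbours whose intervals overlapped. In PB-TERRA, Tubb5 (874 to 888 FPKM) stood above Tuba1a (828 to 847 FPKM), the reverse of the order in PB. Tubb6 (95.4 to 101 FPKM), Tuba4a (94.7 to 100 FPKM) and Tubb2b (91.8 to 97.5 FPKM) overlapped there.

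**Figure D1:**
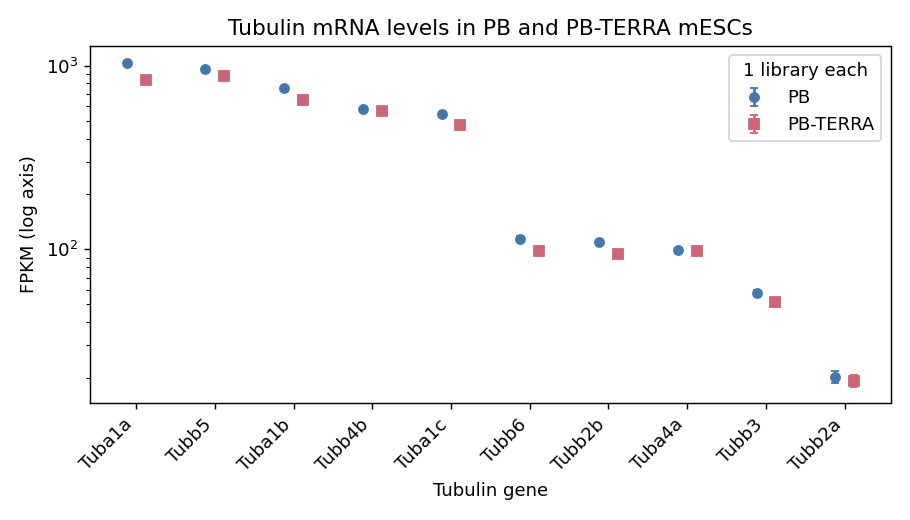
Level of each tubulin gene in PB (circles) and PB-TERRA (squares) mESCs, in FPKM on a log axis, ordered by PB level; bars are 95% counting intervals of 1 library. Tuba1a is the highest gene in PB at 1034 FPKM and Tubb2a the lowest at 20.1 FPKM, and in PB-TERRA Tubb5 is above Tuba1a.

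On the FPKM values as deposited, all 10 genes had a lower value in PB-TERRA, and the log2 ratio was below 0 in 50.9% of the 12263 genes (in 53.1% of the 1734 whose mean was 50 FPKM or more). With each library scaled to the same sum of FPKM, Tuba4a was slightly above 0 instead, at 0.02. With the median ratio of genes of like GC content taken off, Tuba4a was at 0.02 and Tubb4b at 0.0023, while Tubb5 was at -0.08, Tubb3 at -0.11 and Tubb2a at -0.01. The counting interval lay wholly under 0 for 8 of the 10 genes, all but Tuba4a and Tubb2a, against 17.6% of all genes. Among genes whose mean was 50 FPKM or more, whose intervals are narrow, it did so for 8 of 9 tubulins and 31.9% of all. When the interval was moved with the ratio, Tubb4b no longer lay under 0 on the same sum of FPKM (7 of 10 tubulins, 12.3% of genes), nor with the median of genes of like length (17% of genes), level (16.9%) or GC content (15.6%) taken off, 7 of 10 tubulins each. A ratio of -0.2 or lower was held by 4 of the 10 (Tuba1a, Tuba1b, Tubb6 and Tubb2b) against 13.6% of all genes, and by 4 of the 9 whose mean was 50 FPKM or more against 7.96% of such genes. This count depended on the scaling. Only Tuba1a was left on the same sum of FPKM (10.4% of genes) and with the median of genes of like length (12.5%) or GC content (11.1%) taken off, and 3 of 10 were left with the median of all genes (13.1%) or of genes of like level (13.2%) taken off. A ratio of 0.2 or higher was held by 11.6% of all genes and by no tubulin in the set. No gene of the 10 reached an absolute log2 ratio of 1, which 112 of the 12263 genes (0.913%) did. The median log2 ratio was -0.18 over the 10 genes, -0.21 over the alpha and -0.14 over the beta genes, beside -0.0044 over all genes (SD 0.31). Tuba1a stood lowest, with 6.79% of all genes at a ratio as low, while the ratio of Tuba4a was near the middle, with 46.3%.

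**Figure D2:**
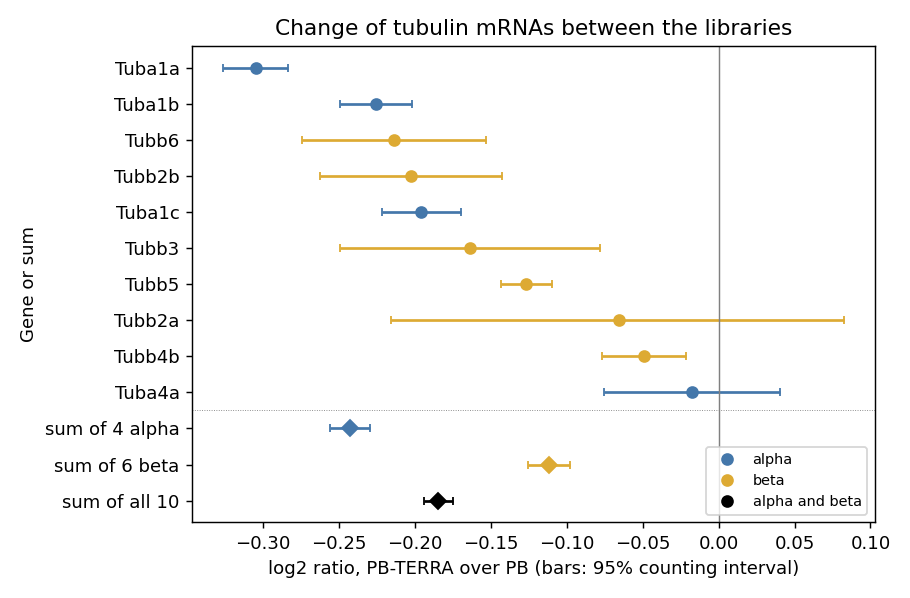
Log2 ratio of PB-TERRA over PB for each gene (circles) and for summed FPKM (diamonds), with 95% counting intervals; alpha is blue and beta yellow. Values run from -0.30 for Tuba1a to -0.02 for Tuba4a on the FPKM as deposited, where the alpha sum (-0.24) lies below the beta sum (-0.11); Tuba4a is above 0 on the scale of a fixed sum, and Tuba4a and Tubb4b are above 0 once GC content is taken off.

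**Figure D3:**
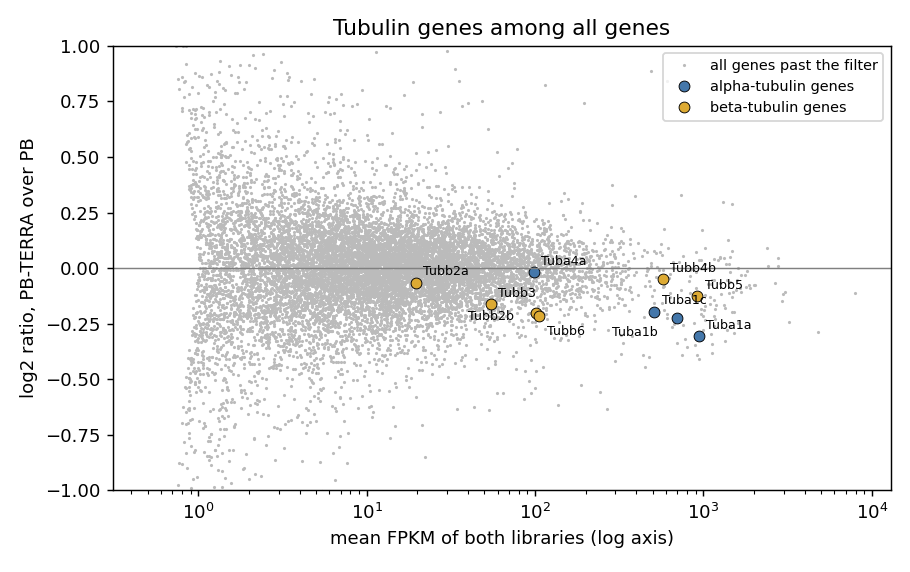
Log2 ratio of PB-TERRA over PB against the mean FPKM of both libraries (log axis) for all genes past the filter (grey) and for the tubulin genes (coloured). The vertical axis stops at -1 and 1, so the 112 genes past those ratios fall outside it; all 10 tubulins lie between -0.30 and -0.02 on the FPKM as deposited, and Tuba4a and Tubb4b cross 0 under the scalings named in the text.

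Summed FPKM of the 4 alpha genes was 2434 in PB and 2058 in PB-TERRA, 15.5% lower, with a log2 ratio of -0.24 (-0.26 to -0.23). Summed FPKM of the 6 beta genes was 1845 in PB and 1708 in PB-TERRA, 7.44% lower, with a log2 ratio of -0.11 (-0.13 to -0.10). On the same sum of FPKM in each library, the beta ratio was -0.073 and the alpha ratio -0.20. Both sums were lower in PB-TERRA, and the alpha sum more so. The 10 genes together came to 4279 FPKM in PB and to 3766 FPKM in PB-TERRA, with a log2 ratio of -0.18 (-0.19 to -0.17). They made up 0.860% of all FPKM in PB and 0.777% in PB-TERRA. The difference of the alpha and beta log2 ratios was -0.13 (-0.15 to -0.11), and the ratio of alpha to beta FPKM went from 1.32 in PB to 1.20 in PB-TERRA. By estimated reads, which weigh long genes more, the alpha genes went from 99469 in PB to 84537 in PB-TERRA. The beta genes went from 94393 reads to 87184.

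The isotype mix moved little. Tuba1a gave 42.5% of alpha FPKM in PB and 40.7% in PB-TERRA. Tuba1b gave 31.0% and 31.4%, Tuba1c 22.4% and 23.2%, and Tuba4a 4.05% and 4.74% in the same order. Tuba1a was thus the isotype whose share was smaller in PB-TERRA. Of beta FPKM, Tubb5 gave 52.1% in PB and 51.6% in PB-TERRA, and Tubb4b 31.6% and 33.0%. Tubb6 gave 6.18% and 5.76%, Tubb2b 5.90% and 5.54%, Tubb3 3.13% and 3.01%, and Tubb2a 1.09% and 1.12%.

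Near-identical sequence limits how far single isotypes can be told apart. In the GENCODE M21 annotation of GRCm38, Tuba1b (chr15:98931425-98934565, minus strand), Tuba1a (chr15:98949837-98953703, minus strand) and Tuba1c (chr15:99029891-99038110, plus strand) lie close together, and each has 4 exons. Their coding sequences are 98.3% identical between Tuba1a and Tuba1b, 97.1% between Tuba1a and Tuba1c, and 97.9% between Tuba1b and Tuba1c. Of all stretches of 50 bases in the transcript, 75.5% of those of Tuba1a, 83.1% of those of Tuba1b and 61.0% of those of Tuba1c also occur in another gene. A read from such a stretch fits several genes, and how the authors' counting divided these reads is not given in the sources used here. The sum of alpha reads does not depend on how they were divided among the 4 alpha genes, whereas the FPKM sum does so slightly, because the genes differ in length (log2 ratio -0.24 on reads and -0.24 on FPKM). Both sums can depend on how reads were divided with genes outside the set. AC157548.1 holds 46.6% of the Tuba1a and 57.0% of the Tuba1b stretches, and Gm3226 holds 38.7% of those of Tuba1c. Tubb2a (chr13:34074274-34078007) and Tubb2b (chr13:34126748-34130466), both on the minus strand, are 96.5% identical in coding sequence, and 45.6% of Tubb2a stretches occur in Tubb2b. Summed, the pair was at 129 FPKM in PB and 114 in PB-TERRA, which gave a log2 ratio of -0.18. Of the Tubb4b stretches, 55.5% occur elsewhere, 43.6% in the pseudogene Tubb4b-ps1. Tubb5 (0.115%) and Tubb3 and Tubb6 (0% each) are free or nearly free of such stretches. The part of shared reads in the ratios of the other genes was not tested. Tuba4a (chr1:75214228-75219865, minus strand) overlaps Stk16, a kinase gene on the other strand, by 1379 bases. Of the Tuba4a stretches, 47.7% occur in Stk16 on the opposite strand. That share is for a transcript of 2840 bases, whereas the deposited length of Tuba4a is 2103 bases, so the share in the counted model is not known. Stk16 was at 14.9 FPKM in each library. The TruSeq v2 kit does not mark strand, so reads from the overlap cannot be told apart.

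The authors' table also holds 12 predicted models annotated as alpha-tubulin and 0 annotated as beta-tubulin, 379 to 1115 bases long. Of the 11 past the filter, 10 were lower and 1 was higher in PB-TERRA. The counting interval was below 0 for 6 and above 0 for 1, and 4 passed an absolute log2 ratio of 1. Over all genes past the filter these shares were 17.6%, 18.2% and 0.913%. BGI_novel_G000417 was at 179 FPKM in PB and 0.77 in PB-TERRA, while BGI_novel_G000418 was at 30.5 FPKM and 173 FPKM. As a pair they were at 210 FPKM in PB and 174 in PB-TERRA, which gave a log2 ratio of -0.27 (-0.33 to -0.20). BGI_novel_G000225, the most abundant model, was at 1617 FPKM in PB and 1557 in PB-TERRA, which gave a log2 ratio of -0.05. It gave 61.3% of model reads in PB and 67.4% in PB-TERRA. BGI_novel_G000224 was at 72.2 FPKM in PB and 16.3 FPKM in PB-TERRA (log2 ratio -2.14), and BGI_novel_G000419 at 118 FPKM and 57.4 FPKM (-1.04). BGI_novel_G000479 had a log2 ratio of -0.85 and BGI_novel_G000807 of -0.25, with intervals below 0. The intervals of BGI_novel_G000808 (-0.24) and BGI_novel_G000789 (-0.09) included 0, and BGI_novel_G000788 did not reach 1 FPKM in either library. Models BGI_novel_G000133 and BGI_novel_G000134 had the same values as each other, with a log2 ratio of -0.10 and intervals that included 0.

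Together the models were at 2333 FPKM in PB and 2070 in PB-TERRA, which gave a log2 ratio of -0.17 (-0.20 to -0.15). They held 19.7% of the reads of alpha genes and models in PB and 20.2% in PB-TERRA. With the models added, alpha FPKM was 4767 in PB and 4127 in PB-TERRA, which gave a log2 ratio of -0.21 (-0.22 to -0.19), and the 10 genes and models came to 6613 FPKM in PB and to 5835 in PB-TERRA, which gave a log2 ratio of -0.18. The alpha sum minus the beta sum was then -0.10 (-0.12 to -0.08) on FPKM and -0.11 (-0.13 to -0.09) on reads. The ratio of all models was less far below 0 than that of the named alpha genes, and the intervals did not overlap. Without BGI_novel_G000225, the other 11 models went from 717 FPKM in PB to 513 in PB-TERRA, a log2 ratio of -0.48 (-0.53 to -0.43). Which locus each model comes from was not tested.

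**Figure D4:**
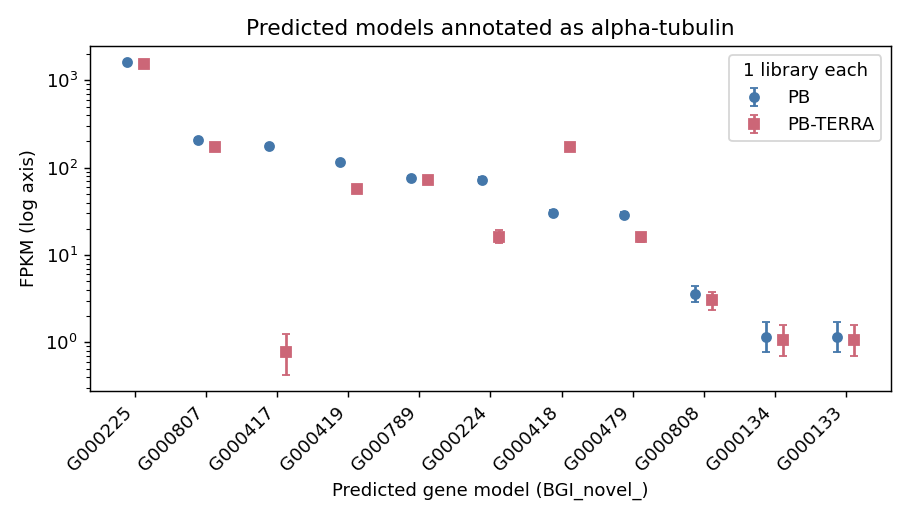
Level of each predicted alpha-tubulin model past the filter in PB (circles) and PB-TERRA (squares), in FPKM on a log axis, with 95% counting intervals. BGI_novel_G000417 and BGI_novel_G000418 change places between the libraries, and their sum is 210 FPKM in PB and 174 FPKM in PB-TERRA.

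The other alpha and beta genes were low. Tuba3a, a testis-rich alpha gene, was at 5.89 FPKM in PB and 4.30 in PB-TERRA, with a log2 ratio of -0.45 (-0.77 to -0.15). Tubb4a, a brain beta gene, was at 3.29 FPKM and 2.78 FPKM, and its interval included 0. Delta-tubulin Tubd1 (-0.19) and epsilon-tubulin Tube1 (-0.13), which serve centrioles, also had intervals that included 0. Gamma-tubulin Tubg1, which nucleates microtubules and is not part of the dimer, was at 41.2 FPKM in both libraries, a log2 ratio of 0.0014. Tuba8, Tuba3b, Tubb1 and Tubg2 did not reach 1 FPKM in either library.

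Genes that make, control and use tubulin were taken from lists and read beside the median of -0.0044 over all genes. Counting intervals lay wholly above 0 in 18.2% of all genes and wholly below 0 in 17.6%. The folding list held 22 genes (the CCT chaperonin, prefoldin, the tubulin cofactors, the cofactor-like gene Tbcel, Pdcl3 and Arl2). Of these, 15 were lower and 7 higher in PB-TERRA, with 9 intervals below 0 and 2 above, and the median was -0.08. Cct4 was at 268 FPKM in PB and 235 in PB-TERRA, which gave a log2 ratio of -0.19 (-0.23 to -0.15), and Cct5 had -0.16. The highest were Tbcel (0.24) and the cofactor gene Tbce (0.15). Of the 8 CCT ring subunits, which were singled out after their values were seen, 7 were lower, 6 with intervals below 0, and the median was -0.11. They were at 246 to 402 FPKM in PB, and among genes whose mean was 50 FPKM or more 53.1% were lower and 31.9% had intervals below 0.

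Of 12 genes for tubulin autoregulation (Ttc5, Scaper and CCR4-NOT subunits), 7 were higher and 5 lower, with 1 interval above 0 and 2 below, and the median was 0.02. Ttc5 was at 25.7 FPKM in PB and 25.2 in PB-TERRA (ratio -0.03). Cnot6l (0.13) and Cnot7 (0.08) had the highest ratios, and Rqcd1 (-0.10), the older symbol of Cnot9, and Cnot2 (-0.09) the lowest. Of 16 tubulin modification genes past the filter, 7 were higher and 9 lower, with a median of -0.05. Ttl, the ligase that adds the terminal tyrosine to alpha-tubulin, was at 4.05 FPKM in PB and 4.78 in PB-TERRA (0.23), and Vash1, a vasohibin that removes it, had 0.19. Svbp, the vasohibin partner, had the lowest ratio at -0.31, and Tpgs1, of the polyglutamylase complex, had -0.19.

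Of 18 nucleation genes (gamma-tubulin ring and augmin), 10 were higher and 8 lower, with 4 intervals on each side of 0, and the median was 0.02. Haus3 (0.25) and Haus6 (0.19) of augmin were highest, and Tubgcp6 (-0.17) and Tubgcp2 (-0.16) of the ring lowest. Of 29 microtubule-binding and dynamics genes, 16 were higher and 13 lower, with 7 intervals above 0 and 6 below, and the median was 0.02. Stmn1, a protein that sequesters tubulin dimers, was at 169 FPKM in PB and 203 in PB-TERRA, which gave a log2 ratio of 0.26 (0.20 to 0.32), and Stmn3 had 0.43. Clip2 (-0.32) and Map1b (-0.17) were lowest. A list of 17 actin cytoskeleton genes, added after the values were seen, had 9 higher and 8 lower and a median of 0.02. The highest were Tmsb4x (0.19) and Pfn1 (0.17), and the lowest Tpm4 (-0.13) and Vcl (-0.12). Actb, named after its value was seen, was at 1438 FPKM in PB and 1516 in PB-TERRA, and Actg1, named likewise, at 2047 and 1939 FPKM.

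**Figure D5:**
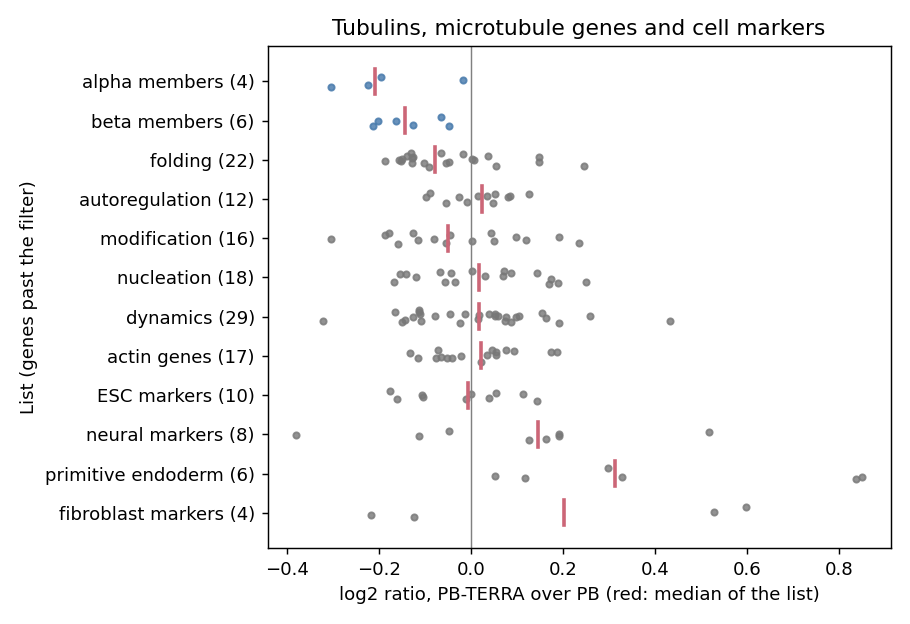
Log2 ratio of PB-TERRA over PB for each gene past the filter (dots), by list, with the number of genes in brackets and the list median in red. The medians of the alpha (-0.21) and beta (-0.14) tubulins lie below 0, as do those of folding (-0.08), modification (-0.05) and ESC markers (-0.0063). Those of the autoregulation, nucleation, dynamics and actin lists lie at 0.02. The neural (0.14), fibroblast (0.20) and primitive endoderm (0.31) medians lie higher.

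Markers of other cells that a culture of mESCs can hold are set beside the tubulin values, since Tubb3, Tubb2b and Tuba1a are rich in neurons. Of 14 neural markers, 8 passed the filter, of which 5 were higher and 3 lower, with 2 intervals above 0 and 2 below, and the median log2 ratio was 0.14. Nes, a neural progenitor filament, was at 27.3 FPKM in PB and 20.9 in PB-TERRA (-0.38), and Stmn2 at 190 and 176 FPKM (-0.11). Sox1 was at 1.06 FPKM in PB and 1.56 in PB-TERRA (0.52), and Ncam1, a neural adhesion molecule, had 0.19. The summed FPKM of all 14 was 239 in PB and 219 in PB-TERRA, most of it Stmn2, and Dcx was at the table's floor of 0.01 in both. Of 8 primitive endoderm markers, 6 passed and all 6 were higher in PB-TERRA, 4 with intervals above 0, and the median was 0.31. Both counts include Pdgfra, which passed only through PB-TERRA, where it was higher (0.51 FPKM in PB and 1 FPKM in PB-TERRA). Gata6 was at 1.22 FPKM in PB and 2.26 FPKM in PB-TERRA (0.84), and Pdgfra had 0.85, while Sparc (0.05) and Lama1 (0.12) had the lowest ratios. The sum of all 8 was 106 FPKM in PB and 114 in PB-TERRA, most of it Sparc. Of 8 fibroblast markers, 4 passed, with 2 higher, Col1a1 (0.60) and Col1a2 (0.53), and 2 lower, Fbn1 (-0.22) and Thy1 (-0.13). Col1a2 passed only through PB-TERRA, where it was higher, with 0.92 FPKM in PB and 1.37 in PB-TERRA, so the count and the median lean on the filter. The median of these 4 was 0.20, and the sum of all 8 was 20.3 FPKM in PB and 24.2 in PB-TERRA. The part of these cells in the tubulin ratios was not tested.

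The promoters, 250 bases before to 50 after the start, were searched on both strands in RefSeq sequences of GRCm38.p6. Of the 10 genes, 8 were found, and Tubb2b and Tubb6 were not. The GC box GGGCGG was in 7 of the 8, and in 35.7% of all 32851 promoters. CCAAT was in 5 of the 8 (Tuba1a, Tuba1c, Tubb3, Tubb4b and Tubb5), and in 37.4% of all. TATAAA was in 2 of the 8 (Tubb2a and Tubb4b), and in 13.6% of all. These are matches of letters, not sites shown to be bound.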

How the data were processed

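From 46C mESCs of each condition, PB and PB-TERRA, the authors made 1 library of total RNA (TruSeq RNA v2 kit, BGISEQ500). The submitters' processing notes name HISAT, Cufflinks and mm9. The authors deposited 1 table of 18888 genes whose FPKM values have 2 decimals and a floor of 0.01. The header names no unit, and FPKM is read from the values. Columns of the authors' own fold change, P-value and FDR were not used. Reads were estimated from FPKM and length, after a length offset of 114 bases and a depth were fitted to the short genes (300 to 700 bases). Of the values fitted, 84.1% (PB) and 85.2% (PB-TERRA) lay within 0.15 read of a whole number. Ratios are log2 of FPKM plus 0.1 for genes with at least 1 FPKM in 1 library. Intervals of single ratios are exact binomial, of levels exact Poisson, of FPKM sums a normal approximation. Reads were also simulated for 18888 genes, with counting error alone and the fitted offset and depths, and 200 genes were changed. Of the intervals of those 200, 96.5% held the true ratio. The simulation held no shared reads and no replicate spread, so it checks the computation and not those errors. Sequences came from GENCODE M21 and RefSeq. Genes named are all tubulin rows and, from each list, the 2 highest and 2 lowest ratios. Ttc5, Pou5f1, Actb, Actg1, Dcx, Stk16, Pdcl3, Arl2, Scaper, Stmn4, Stmn2 among the dynamics genes, the genes named for shared stretches and the CCT subunits were named outside that rule. The members and lists were chosen with earlier results of these data known. Computations used biopython 1.88, scipy 1.17.1, pandas 2.3.3, numpy 2.4.6 and matplotlib 3.10.9 under Python 3.11.15.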

Additional observations from a re-analysis of the deposited data

How the results depend on the processing

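No paired analysis was possible because each condition has 1 library, and no replicate could be left out. The median log2 ratio of the 10 genes was -0.12 after the median of genes of like GC content was taken off, an alternative added after seeing the data, with 8 of 10 below 0. GC content was found for 94.3% of genes, from GRCm38. The alpha sum was -0.20 with each library scaled to the same total, -0.20 without Tuba1a, -0.21 with the predicted models, -0.23 on reads with the models and -0.21 with the models other than the pair that changes places. The beta sum was -0.073 on the same total and -0.10 without Tubb5. The sum of all 10 was -0.15 on the same total and -0.15 without Tuba1a. All sums kept their direction under the alternatives applied to them. The medians of genes of like length, level or GC content were not taken off the sums. Past an absolute log2 ratio of 1 were 112 genes, 517 with no filter, 17 with a mean of at least 5 FPKM and 45 with a pseudocount of 1. Of 70 values of single tubulin genes under alternatives, 52 stayed within their counting interval and 18 moved outside it. The sign changed in 3, for Tuba4a (0.02 on the same total and 0.02 with GC content) and Tubb4b (0.0023 with GC content). Adding beta models was not possible, since the table has none. The limits are the single library per condition, reads shared among near-identical genes, and a length offset that was fitted and not given by the sources.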
